A study of Mus musculus with 28 samples.

Results

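The liver sinusoid is lined by a fenestrated endothelium whose marker genes and secreted ligands are the subject here. The genes were taken by matching their symbols to the Ensembl identifiers of a table of read counts per gene, and all 10 had a row among its 49585 features. They are Stab1, Stab2, Lyve1, Clec4g and Fcgr2b, which encode receptors that bind or take up ligands from the blood, Kdr, which encodes the main VEGF receptor, Oit3, a gene of these cells, and Wnt2, Wnt9b and Rspo3, which encode secreted ligands. All 10 passed the filter for expressed genes, set at an average of 0.5 normalized counts, which 21583 genes passed in all. The counts come from RNA of whole livers, 1 library per mouse, from a study of mice that carry extra copies of Sirt6, which encodes a NAD-dependent deacylase of the sirtuin family. The 4 groups of 7 were wild-type (WT) and SIRT6-tg males, and WT and SIRT6-tg females. All mice were of the strain C57BL/6JOlaHsd, aged 5 to 7 months, kept on a standard chow diet and fasted for some hours before the livers were taken, and no other allele or agent is named for any group. The transgenic mice belong to 1 line that overexpresses Sirt6 in the whole body, so insertion site and transgene cannot be told apart, and the promoter is not given in the sources used here. The question of the comparisons is how the levels of these genes differ between SIRT6-tg and WT livers in each sex, and whether that difference is itself unequal between the sexes.

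Sinusoidal endothelial cells clear waste molecules from the blood through stabilins, the mannose receptor and the Fc receptor IIb, and they differ from other capillary endothelium in lacking a continuous basement membrane. They also signal to their neighbours, which is called angiocrine signalling. Wnt2 and Wnt9b from the endothelium around the central vein, together with R-spondin 3, which keeps Wnt receptors at the cell surface, maintain the pericentral programme of hepatocytes, the expression of glutamine synthetase and of cytochromes P450 among others.

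The members are protein-coding genes on the minus strand of GRCm38 (the build also called mm10). Their positions are 31139013 to 31168641 on chromosome 14 for Stab1, 86841198 to 87008025 on chromosome 10 for Stab2, 110850607 to 110863239 on chromosome 7 for Lyve1, 3707064 to 3720651 on chromosome 8 for Clec4g, and 170958617 to 170976547 on chromosome 1 for Fcgr2b. Kdr lies at 75932827 to 75978458 on chromosome 5 and Oit3 at 59422958 to 59441778 on chromosome 10. Of the ligands, Wnt2 lies at 17988940 to 18030585 on chromosome 6, Wnt9b at 103727364 to 103749821 on chromosome 11, and Rspo3 at 29452416 to 29535867 on chromosome 10. The last exon of Stab1 overlaps exons of Nt5dc2 on the other strand, which had at most 218 counts in a library, and the strand setting of the counting is not given in the sources used here, so reads in that overlap are uncertain. The other genes that overlap a member had at most 9 counts in any library.

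Promoters were at hand for 7 of the 10 members, as RefSeq sequence of GRCm38.p6 from 250 bases before to 50 bases after the annotated start. Those of both Wnt ligands and of both stabilins are printed in the direction of transcription, since Wnt9b is the one member that differed between genotypes in males and the stabilins moved together across livers (both described next to the values). Capitals mark 4 short motifs searched on both strands, whose letters do not overlap in these 4 sequences. ETS factors bind the core AGGAAG, and GATA factors bind sites with AGATAA. Sites of SOX factors hold AACAAT, and TGCTGA is part of the MAF recognition element.
Wnt9b, chr11:103749772-103750071, minus strand: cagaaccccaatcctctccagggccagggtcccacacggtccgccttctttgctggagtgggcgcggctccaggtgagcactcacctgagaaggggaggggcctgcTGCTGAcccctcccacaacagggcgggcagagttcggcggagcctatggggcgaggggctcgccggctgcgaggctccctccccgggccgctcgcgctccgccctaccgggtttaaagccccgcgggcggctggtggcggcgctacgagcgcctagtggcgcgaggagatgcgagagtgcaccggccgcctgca
Wnt2, chr6:18030396-18030695, minus strand: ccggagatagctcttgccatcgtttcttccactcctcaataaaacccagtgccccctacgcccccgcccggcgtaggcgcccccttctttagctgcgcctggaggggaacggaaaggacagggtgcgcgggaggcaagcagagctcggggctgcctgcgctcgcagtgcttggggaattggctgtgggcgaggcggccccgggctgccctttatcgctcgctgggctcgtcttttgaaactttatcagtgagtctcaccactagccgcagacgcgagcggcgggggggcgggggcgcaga
Stab1, chr14:31168592-31168891, minus strand: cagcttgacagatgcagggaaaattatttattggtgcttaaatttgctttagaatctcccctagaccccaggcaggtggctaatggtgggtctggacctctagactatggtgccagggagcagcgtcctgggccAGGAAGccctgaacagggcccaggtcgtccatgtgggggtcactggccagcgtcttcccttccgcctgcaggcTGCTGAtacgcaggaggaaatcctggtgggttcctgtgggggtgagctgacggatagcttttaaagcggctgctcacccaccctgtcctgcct
Stab2, chr10:87007893-87008192, minus strand: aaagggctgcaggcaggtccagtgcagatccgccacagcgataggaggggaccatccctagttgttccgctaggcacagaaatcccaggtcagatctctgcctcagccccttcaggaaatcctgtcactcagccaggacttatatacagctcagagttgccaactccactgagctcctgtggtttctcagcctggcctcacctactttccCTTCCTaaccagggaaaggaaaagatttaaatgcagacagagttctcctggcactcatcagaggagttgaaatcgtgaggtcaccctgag

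The ligand promoters were rich in CpG, with 29 CpG dinucleotides and 71.7% G and C in Wnt9b and 27 and 65.7% in Wnt2, against 7 and 57.3% in Stab1 and 4 and 53% in Stab2. The medians over all 32851 promoters of the same length were 7 CpG dinucleotides and 52.7% G and C. Kdr had 19 CpG dinucleotides, and Clec4g and Fcgr2b had 4 and 6. AGGAAG was found in 3 of the 7 promoters (Stab1, Stab2 and Clec4g, which held 3 matches) and in 35.4% of all promoters. TGCTGA was found in 2 (Stab1 and Wnt9b) and in 19.5% of all. AGATAA and AACAAT were found in 0 of 7, and in 11.2% and 10.7% of all promoters. A match is a description of letters only.

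Levels between members are compared per kilobase of exon. Clec4g, a C-type lectin, had the highest normalized count per kilobase, 704 ± 193 (SD, n = 28 livers), and lay above Fcgr2b in all 28 libraries. Fcgr2b, the inhibitory Fc receptor, had 310 ± 68.4 and Oit3 248 ± 54.8 normalized counts per kilobase. Stab2 and Kdr were next at 148 ± 25.8 and 143 ± 27.5 per kilobase, and their order is not settled, since Stab2 was above Kdr in 17 of 28 libraries. Stab1 followed at 109 ± 17.1 per kilobase. Lyve1, a hyaluronan receptor, at 81.6 ± 60.003 and Rspo3 at 75.3 ± 21.7 per kilobase did not differ beyond their spread either, with Lyve1 higher in 14 of 28 libraries. Wnt2 had 53.7 ± 14.5 and Wnt9b 7.18 ± 2.87 per kilobase, and Wnt9b was lowest in every library. The raw count of Wnt9b was between 10 and 81 reads per library, so its values carry more counting error than those of the other members, whose lowest raw count was 55.

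**Figure D1:**
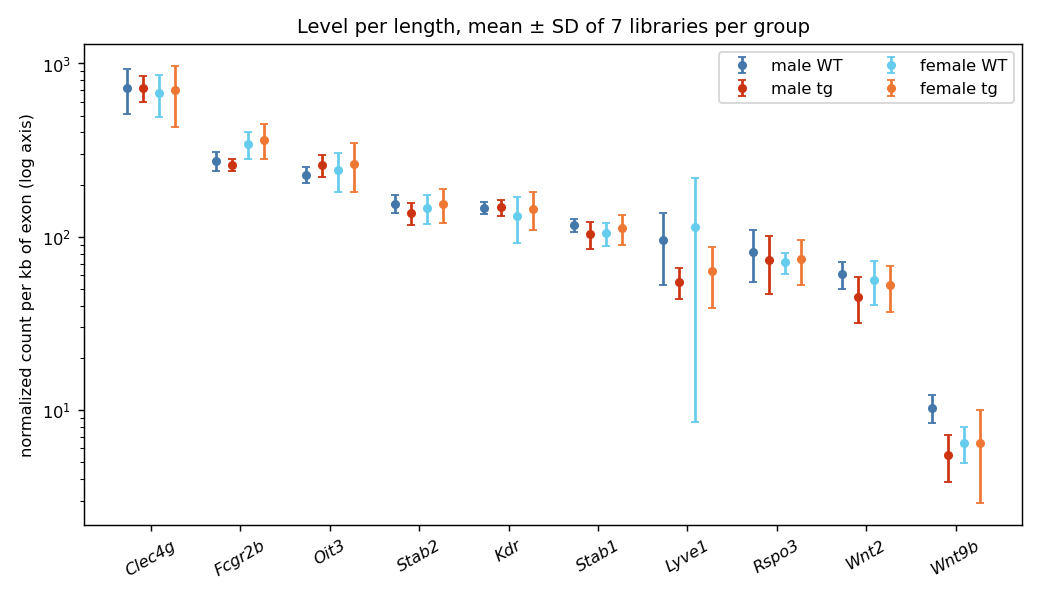
Normalized count per kilobase of exon on a log axis for the 10 members, ordered by their mean over 28 libraries, with the mean ± SD of 7 libraries for each of the 4 groups. Clec4g is highest at 704 and Wnt9b lowest at 7.18 over all libraries, and the order is nearly the same in the 4 groups.

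The targeted gene was checked first. Sirt6 had 44.8 to 85.9 normalized counts in male WT and 5263 to 9517 in male SIRT6-tg livers, a log2 fold change of 6.68 (SE 0.30, adjusted p = 1.78e-15, edgeR). In females it had 47.9 to 165 in WT and 434 to 1335 in SIRT6-tg livers, a log2 fold change of 3.39 (SE 0.26, adjusted p = 3.33e-09). The WT female with 165 was replicate 1, the others of its group having at most 78.2. Reads of the transgene and of the endogenous gene are counted together.

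In 4 libraries at least 1 member stood apart. Male WT replicate 6 had the highest Lyve1, Clec4g and Rspo3 of its group. Female WT replicate 1 had 1021 normalized counts of Lyve1 where the other 6 had at most 262. The same library had a summed level of 149 normalized counts over Pdpn, Ccl21a and Mmrn1, markers of lymphatic endothelium, which also uses Lyve1, where the other 6 had 12.2 to 19.002, and Mmrn1 was at 0 in every library. Female SIRT6-tg replicate 2 had the lowest value of its group in 8 of the 10 members, the highest in Wnt9b, and the lowest summed level of 18 pan-endothelial genes, 5479 normalized counts against 7600 to 10806. Female SIRT6-tg replicate 1 had the highest Clec4g.

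In males 1 of the 10 members, Wnt9b, passed an adjusted p of 0.05 between SIRT6-tg and WT, and it was lower. Over all genes tested 20.7% passed in either direction, so 1 of 10 is no more than the background. Of the members, 3 had an unadjusted p under 0.05, as had 7027 of all 21583 genes. The median log2 fold change of the 10 was -0.16, beside 0.06 over all genes. No member had 7 transgenic values that all lay outside the 7 WT values. The share of all genes with such a separation was not counted, so this is a description only. In bulk RNA fewer endothelial cells and less RNA per cell cannot be told apart.

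The receptors of scavenging and uptake differed by little between male genotypes, apart from Lyve1. Stab1 had 1020, 1195 and 1356 normalized counts (lowest, median and highest of 7) in male WT and 752, 1103 and 1280 in male SIRT6-tg livers. The log2 fold change was -0.17 (SE 0.12, 95% interval -0.42 to 0.08, adjusted p = 0.369). The groups overlapped, with 3 transgenic livers below every WT liver. Stab2, the other stabilin, had 1110, 1377 and 1530 in WT and 936, 1247 and 1369 in SIRT6-tg livers. This gave a log2 fold change of -0.18 (SE 0.13, interval -0.45 to 0.09, adjusted p = 0.384), close to that of Stab1.

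Clec4g and Fcgr2b were near 0 on the log2 scale. Clec4g, a lectin that binds glycans on cells and viruses, had 1373, 1575 and 2863 normalized counts in male WT and 1444, 1685 and 2205 in male SIRT6-tg livers. Its log2 fold change was -0.0015 (SE 0.20, interval -0.41 to 0.41, adjusted p = 0.998), and male WT replicate 6 alone lay above the transgenic range. Fcgr2b had 1284, 1676 and 1791 in WT and 1286, 1541 and 1653 in SIRT6-tg livers. The difference was -0.07 on the log2 scale (SE 0.13, interval -0.34 to 0.20, adjusted p = 0.771), and the lowest values of both groups nearly coincided.

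Lyve1 was the member with the widest spread. It had 152, 242 and 541 normalized counts in male WT and 123, 156 and 207 in male SIRT6-tg livers, so that 6 of the 7 WT livers lay above every transgenic one. The log2 fold change was -0.80 (SE 0.35, interval -1.52 to -0.09) with an unadjusted p of 0.0285 and an adjusted p of 0.104, which does not pass. The call turned on a library of the other sex, because all 28 libraries share 1 estimate of the spread. Without female WT replicate 1 the male value was -0.82 and passed (adjusted p = 0.0117), and with males fitted alone it was -0.89 (adjusted p = 0.00636). Without male WT replicate 6 it was -0.56 (adjusted p = 0.256). Without all 4 libraries that stood apart it was -0.57 and passed (adjusted p = 0.0225).

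Kdr and Oit3 did not pass. Kdr, the receptor through which VEGF-A keeps the endothelium alive and fenestrated, had 1142, 1363 and 1466 normalized counts in male WT and 1121, 1320 and 1524 in male SIRT6-tg livers. Its log2 fold change of 0.01 (SE 0.15, interval -0.30 to 0.33, adjusted p = 0.972) changed sign with the scaling, from -0.26 with library size alone to 0.11 relative to pan-endothelial genes. Oit3, a secreted protein with a zona pellucida domain, had 557, 642 and 707 in WT and 599, 708 and 916 in SIRT6-tg livers. Its log2 fold change was 0.19 (SE 0.17, interval -0.15 to 0.54, adjusted p = 0.470), the highest among the members, and -0.08 with library size alone.

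Of the 3 ligands, Wnt9b was lower in male SIRT6-tg livers. It had 33.6, 46.1 and 60.2 normalized counts in male WT and 14.1, 23.9 and 34.3 in male SIRT6-tg livers, and means of 46.6 ± 8.41 and 24.9 ± 7.48 (SD, n = 7 each). The ranges touched, since 2 transgenic livers lay just above the lowest WT liver. Wnt9b fell by 0.90 on the log2 scale (SE 0.24, 95% interval of the log2 fold change -1.38 to -0.41, adjusted p = 0.00692, edgeR quasi-likelihood test), a change of -46.2%. Leaving out each library in turn gave log2 fold changes between -0.997 and -0.818 with adjusted p between 0.000947 and 0.0175. Relative to pan-endothelial genes it was -0.78 and no longer passed (adjusted p = 0.0615).

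Wnt2 and Rspo3 did not pass in males. Wnt2 had 86.8, 144 and 163 normalized counts in WT and 66.7, 92.8 and 153 in SIRT6-tg livers. Its log2 fold change was -0.43 (SE 0.21, interval -0.85 to -0.0057) with an unadjusted p of 0.0472 and an adjusted p of 0.148. The groups overlapped, and 6 of 7 transgenic livers lay below the WT median. Rspo3 had 201, 219 and 440 in WT and 141, 189 and 376 in SIRT6-tg livers, a log2 fold change of -0.16 (SE 0.20, interval -0.57 to 0.25, adjusted p = 0.629). With library size alone 4294 of all 21583 genes were called in males, 210 of them higher. The median of all genes was then -0.22 in place of 0.06 under TMM. In that setting 5 members were lower in males, namely Stab1, Stab2, Lyve1, Wnt2 and Wnt9b, at log2 fold changes of -0.44, -0.45, -1.10, -0.72 and -1.17. Relative to the shift of all genes these are changes of about the same size as under TMM.

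**Figure D2:**
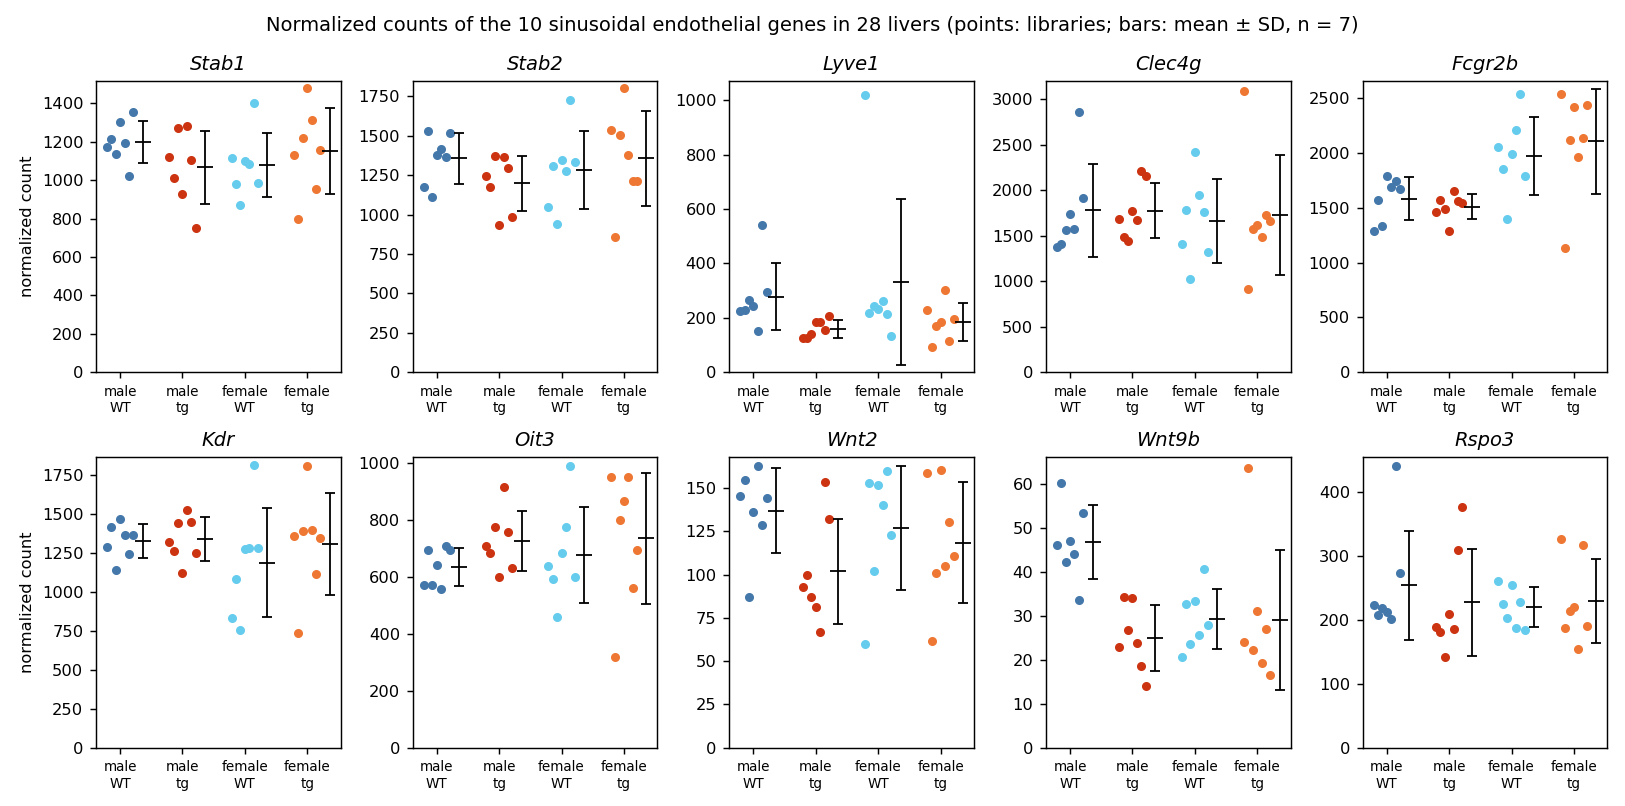
Normalized counts of the 10 members in each of the 28 libraries, with 1 panel per gene, 7 points per group and the mean ± SD beside them. Wnt9b is lower in the male SIRT6-tg livers (mean 24.9) than in the male WT livers (mean 46.6), and single libraries lie far from their group for Lyve1, at 541 and 1021.

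In females 0 of the 10 members passed, by edgeR or by DESeq2, where 0.0278% of all genes did by edgeR and 42 genes by DESeq2. Only Lyve1 had an unadjusted p under 0.05 among the members, and 1212 of all genes did. The median log2 fold change of the members was 0.07, beside 0.0026 over all genes. Lyve1 had 133, 233 and 1021 normalized counts in female WT and 92.4, 185 and 302 in female SIRT6-tg livers. Its log2 fold change of -0.85 (SE 0.35, interval -1.56 to -0.14, unadjusted p = 0.0209, adjusted p = 0.733) rested on female WT replicate 1, without which it was -0.24.

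The other receptors had log2 fold changes between 0.05 and 0.14 in females. Stab1 had 871, 1082 and 1401 normalized counts in WT and 798, 1155 and 1480 in SIRT6-tg livers (log2 fold change 0.10, interval -0.15 to 0.35). Stab2 had 941, 1309 and 1724 and then 854, 1377 and 1800 (0.08, -0.19 to 0.35). In both stabilins the transgenic group held the lowest and the highest of the 14 female values. Clec4g ranged from 1027 to 2415 in WT and from 912 to 3090 in SIRT6-tg livers, a log2 fold change of 0.05 with an interval of -0.36 to 0.46. Fcgr2b had 1400, 1987 and 2536 in WT and 1132, 2136 and 2536 in SIRT6-tg livers, a log2 fold change of 0.09 (-0.18 to 0.36). Kdr, from 752 to 1811 in WT and from 736 to 1804 in SIRT6-tg livers, had a log2 fold change of 0.14 (-0.18 to 0.45), and Oit3, from 458 to 989 and from 320 to 953, one of 0.12 (-0.23 to 0.47).

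The female ligands did not pass either. Wnt9b had 20.6, 27.9 and 40.7 normalized counts in WT and 16.4, 24.05 and 63.6 in SIRT6-tg livers. Its log2 fold change of 0.0094 (SE 0.24, interval -0.48 to 0.50, adjusted p = 1.00) became -0.33 without female SIRT6-tg replicate 2, the library at 63.6 (adjusted p = 0.961). Wnt2 had 59.7, 140 and 160 in WT and 61.9, 111 and 161 in SIRT6-tg livers, a log2 fold change of -0.11 (interval -0.53 to 0.32). Rspo3 had 184, 224 and 261 in WT and 154, 213 and 326 in SIRT6-tg livers, a log2 fold change of 0.06 (interval -0.35 to 0.47). The adjusted p was 0.733 for Lyve1 and 1.00 for each of the other 9 members.

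Whether the genotype effect was unequal in males and females was tested as an interaction. It passed for 0 of the 10 members by edgeR and by DESeq2. Of all genes 5.05% passed by edgeR, and 1536 genes by DESeq2. Sirt6 itself had an interaction of 3.29 on the log2 scale (SE 0.35, adjusted p = 6.96e-06, edgeR). Here and wherever an effect differed between the sexes, sex and transgene level therefore cannot be told apart. Among the members 1 had an unadjusted p under 0.05, as had 4055 of all genes. That member was Wnt9b, for which the male minus the female log2 fold change was -0.90 (SE 0.34, interval -1.60 to -0.21, unadjusted p = 0.0124, adjusted p = 0.128). Without female SIRT6-tg replicate 2 the difference was -0.57 (adjusted p = 0.289), and with library size alone it was -1.19 and passed (adjusted p = 0.0281). Under TMM the Wnt9b change in males is thus not shown to differ from that in females. For Stab1 and Stab2 the differences were -0.26 with intervals of -0.62 to 0.09 and of -0.65 to 0.13, and for Lyve1 0.04 with an interval of -0.96 to 1.05.

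**Figure D3:**
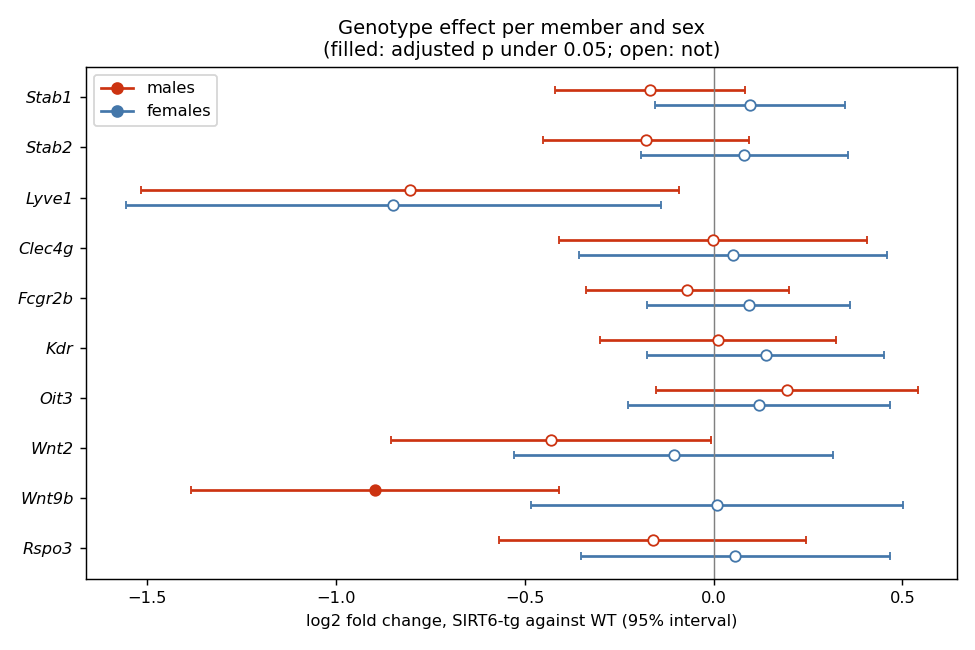
Log2 fold change of SIRT6-tg against WT with its 95% interval for the 10 members, in males (red) and in females (blue), with filled points where the adjusted p is under 0.05. Only the male value of Wnt9b, -0.90, is filled, and the intervals of the sexes overlap for every member.

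Between the sexes the member that differed was Fcgr2b, in the transgenic livers. Male SIRT6-tg livers had 1286, 1541 and 1653 normalized counts and female SIRT6-tg livers 1132, 2136 and 2536, a log2 fold change of males against females of -0.48 (SE 0.13, interval -0.75 to -0.21, adjusted p = 0.00852, edgeR). Apart from replicate 2, every female SIRT6-tg liver lay above every male one, and without that replicate the log2 fold change was -0.59 (adjusted p = 0.000258). It was 1 of 10 members to pass, where 23.1% of all genes did. It passed under every other scaling, filter and test as well. In WT livers Fcgr2b was -0.32 (SE 0.13, interval -0.59 to -0.05, unadjusted p = 0.0218, adjusted p = 0.117), the same direction, and the difference between these 2 values was -0.16 with an interval of -0.54 to 0.22. Sirt6 itself was at 3.22 (SE 0.25) in male against female SIRT6-tg livers, so sex and transgene level cannot be told apart between those 2 groups.

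Among WT livers 0 of the 10 members passed between males and females by edgeR, where 12.4% of all genes passed, and 2 members and 5417 genes had an unadjusted p under 0.05. DESeq2 called 1 member, Wnt9b, and 3237 genes in all. Wnt9b was higher in 6 of 7 male WT livers than in any female WT liver, with a log2 fold change of 0.68 (SE 0.24, interval 0.20 to 1.16, unadjusted p = 0.00710, adjusted p = 0.0551). Wnt9b passed with RLE scaling (adjusted p = 0.0444), library size alone (0.0113), filterByExpr (0.0374), the libraries that stood apart left out (0.0220), and DESeq2 (0.0229), and not with upper-quartile scaling, without a filter, or relative to pan-endothelial genes, where Fcgr2b passed (-0.40, adjusted p = 0.0474). This comparison and that of the male genotypes share the 7 male WT libraries, and 6 of these hold the highest Wnt9b values of the series after female SIRT6-tg replicate 2. Between the transgenic sexes Wnt9b was -0.23 (interval -0.73 to 0.28, adjusted p = 0.546).

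Other genes of the same cells were counted as fixed lists. Over all genes tested, 11.0% were lower and 9.68% higher in male SIRT6-tg livers, beside which the counts of these and the later lists stand. With library size alone 4294 of 21583 genes were called in males, 210 of them higher. Of 16 further markers of sinusoidal endothelium, 3 were lower in male SIRT6-tg livers and 0 higher, with a median log2 fold change of -0.13. They were Thbd, which encodes thrombomodulin (-0.81, SE 0.14, adjusted p = 4.64e-05), Kit, the receptor of stem cell factor (-0.68, SE 0.15, adjusted p = 0.00104), and Adam23 (-0.52, SE 0.19, adjusted p = 0.0470), which did not pass relative to pan-endothelial genes (adjusted p = 0.113). For Thbd and Kit the effect differed between the sexes (adjusted p = 0.0230 and 0.0124), and the female values were -0.10 and 0.17. The summed level of the 16 genes was 26678 to 30908 normalized counts in male WT and 26371 to 32562 in male SIRT6-tg livers, so the groups overlapped almost fully. A sum is carried by its most abundant genes, so this one says little of the less abundant markers. In female SIRT6-tg livers it ran only from 25614 to 30683, where the pan-endothelial sum ran from 5479 to 10806.

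Of 18 pan-endothelial genes, 1 was lower in males, Pecam1, the adhesion molecule CD31 (-0.37, SE 0.14, adjusted p = 0.0496, and 0.130 relative to the list itself), and the list median was -0.08. With library size alone 8 of the 18 were lower, as were 5 of the 16 further sinusoidal markers. Of 12 genes of large vessels and capillaries outside the sinusoid, 2 were lower, Cd34 (-1.22, SE 0.21, adjusted p = 7.09e-05) and Vwf, von Willebrand factor (-0.73, SE 0.16, adjusted p = 0.00145), with a list median of -0.27 and 6 lower with library size alone. In females 0 genes of these 3 lists passed in edgeR, with list medians of 0.12, 0.05 and -0.12, and 2 had an unadjusted p under 0.05, both of the last list.

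Of 16 other ligands and ligand inhibitors known from endothelial signalling, 3 were lower in males, with a list median of -0.33. Relative to pan-endothelial genes 1 was lower (Dkk3) and 1 higher (Dll4, a Notch ligand, 0.53, adjusted p = 0.0338), and with library size alone 6 were lower. The 3 were Dkk3 (-1.21, SE 0.18, adjusted p = 8.41e-06), a secreted protein of the Dickkopf family, Sfrp1 (-1.35, SE 0.46, adjusted p = 0.0351), which binds Wnt proteins, and the ligand Wnt5a (-0.80, SE 0.23, adjusted p = 0.0122). Sfrp1 and Wnt5a did not pass relative to pan-endothelial genes (adjusted p = 0.0898 and 0.0822). For Dkk3 the effect differed between the sexes (adjusted p = 0.0337). Hgf, hepatocyte growth factor, had -0.67 and did not pass (adjusted p = 0.0966). Of 12 genes of the VEGF pathway, 2 were higher, the ligand Vegfa (0.39, SE 0.13, adjusted p = 0.0268) and the co-receptor Nrp1 (0.40, SE 0.11, adjusted p = 0.00914), with a list median of -0.11, while their receptor Kdr was at 0.01. With library size alone neither passed (0.12 and 0.13), nor did either relative to pan-endothelial genes (adjusted p = 0.0888 and 0.0571).

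A list of 22 genes held Wnt and R-spondin receptors and transducers, and the secretion genes Porcn and Wls. Its median log2 fold change was 0.06 in males, where Porcn and Wls passed and the other 20 genes did not. Porcn, the acyltransferase that Wnt proteins need for secretion, was higher (0.55, SE 0.13, adjusted p = 0.00271), and differed between the sexes (adjusted p = 0.0163, female value -0.17). With library size alone Porcn was 0.27 and did not pass (adjusted p = 0.199). Wls, which carries Wnt proteins to the cell surface, was lower (-0.42, SE 0.11, adjusted p = 0.00862), and did not pass relative to pan-endothelial genes (-0.31, adjusted p = 0.111). Of 18 genes that hepatocytes express under Wnt control, 2 were higher and 1 lower in males, with a median of -0.08. The higher ones were Cyp27a1 (0.48, SE 0.10, adjusted p = 0.000566) and Cyp2e1 (0.36, SE 0.12, adjusted p = 0.0355), and the lower one Rhbg, an ammonium transporter of pericentral hepatocytes (-1.18, SE 0.26, adjusted p = 0.00146). The other 15 did not pass, among them Gulo (-0.31, adjusted p = 0.0559) and Glul, glutamine synthetase, which is named after its values were seen (-0.23, adjusted p = 0.227). With library size alone 0 of the 18 were higher and 5 lower, with a median of -0.36. Cyp27a1 and Cyp2e1 then had 0.20 and 0.08 and did not pass, while Glul (-0.51, adjusted p = 0.00620), Gulo (-0.58, adjusted p = 0.000662), Axin2 (-0.72, adjusted p = 0.0162) and Slc1a2 (-0.54, adjusted p = 0.0135) passed beside Rhbg. Cyp2e1 did not pass with RLE scaling either (0.32, adjusted p = 0.0705), where Gulo did (-0.35, adjusted p = 0.0266). In females 0 of the 22 and 0 of the 18 passed, and 2 and 3 had an unadjusted p under 0.05.

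Fcgr2b stood beside the other Fc receptors. Of the 5 others, 4 were lower in male SIRT6-tg livers, namely Fcgr4 (-1.85, SE 0.29, adjusted p = 2.94e-05), the signalling chain Fcer1g (-1.36, SE 0.20, adjusted p = 9.16e-06), Fcgr1 (-1.33, SE 0.23, adjusted p = 8.30e-05) and Fcgr3 (-1.17, SE 0.23, adjusted p = 0.000396), all of them receptors of macrophages and other myeloid cells. Fcgrt, the neonatal Fc receptor, was higher at 0.39 (adjusted p = 0.0498), a call that RLE scaling ends (0.35, adjusted p = 0.0970), and is named here after its values were seen. For Fcer1g, Fcgr4 and Fcgr1 the effect differed between the sexes (adjusted p = 0.0101, 0.0229 and 0.0475). The male interval of Fcgr2b, -0.34 to 0.20, lay wholly above the estimates of these 4 genes.

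Markers of other cells moved between the male genotypes, and their part in the members' values was not tested. Of 13 genes of Kupffer cells and other macrophages, 12 were lower, with a median of -1.20, and their summed level was 14340 to 46584 normalized counts in male WT and 11858 to 20233 in male SIRT6-tg livers. All 8 T-cell genes and 5 of 8 B-cell genes were lower, with medians of -2.38 and -0.86. Of 12 genes of stellate cells and fibroblasts, 9 were lower (median -0.69), with summed levels of 15408 to 23427 and 12195 to 15496. Of 9 hepatocyte genes 3 were higher (median 0.35). None of the 6 cholangiocyte, 5 mesothelial and 2 lymphatic genes tested passed, with 1 of each having an unadjusted p under 0.05 and medians of -0.37, -0.53 and -0.91. None of the marker genes passed in females. With library size alone 0 of the 9 hepatocyte genes passed (median 0.06), and 0 passed with upper-quartile scaling. Relative to pan-endothelial genes 11 of the 13 macrophage, 7 of the 12 stellate-cell and 3 of the 8 B-cell genes were lower, and with library size alone 8 B-cell, 2 cholangiocyte and 1 mesothelial genes.

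**Figure D4:**
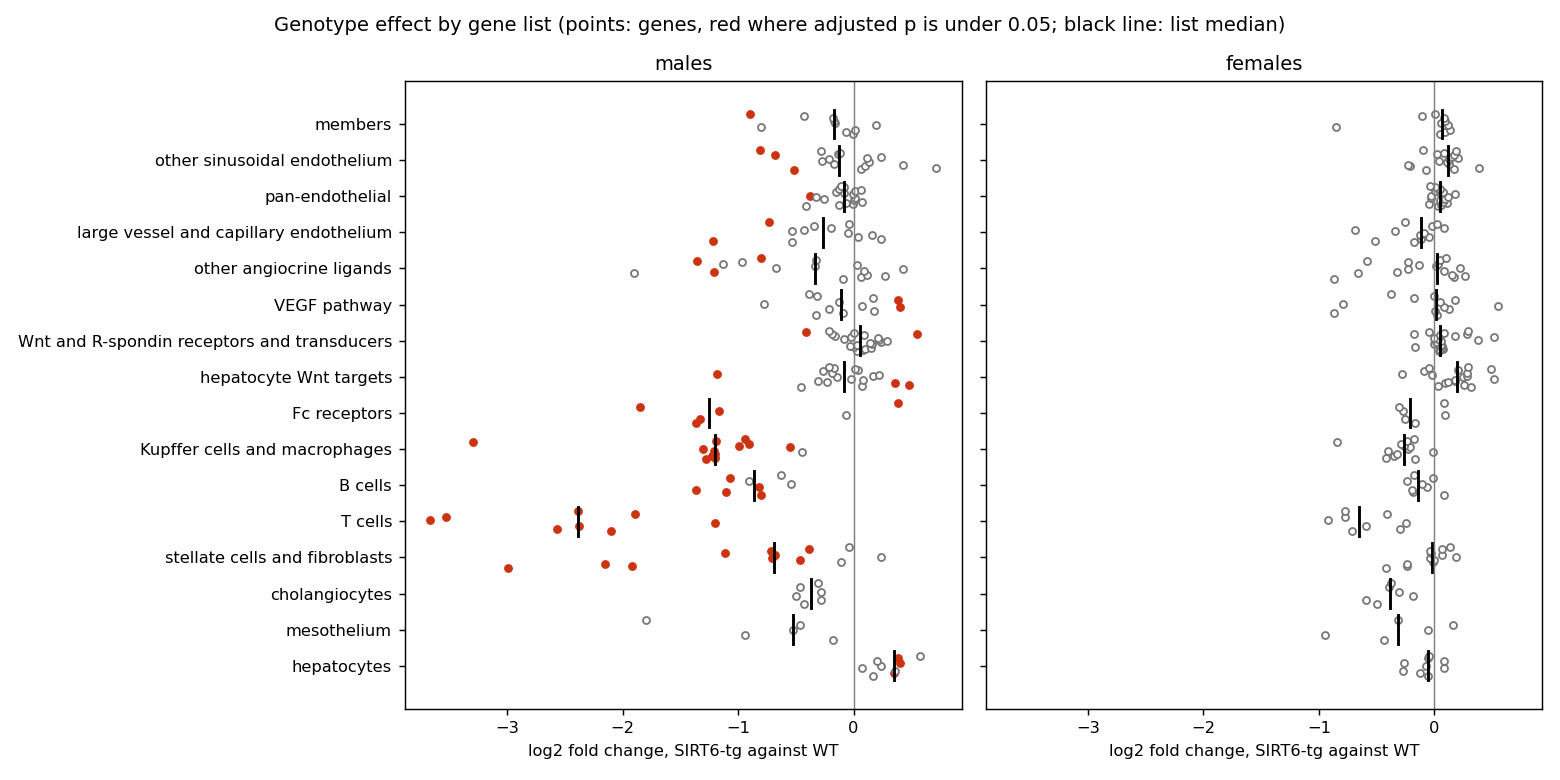
Log2 fold change of SIRT6-tg against WT for the genes of each list except the lymphatic one, males at left and females at right, with genes past an adjusted p of 0.05 in red and the list median as a black line. The members and the 3 endothelial lists have medians of -0.16, -0.13, -0.08 and -0.27 in males, while the macrophage and T-cell lists centre at -1.20 and -2.38, and no female point is red.

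Across livers the members did not vary as 1 group. Log2 CPM was centred within each of the 4 groups, and Pearson r was taken over the 28 libraries, which share depth and composition, as a description. Among the 45 pairs r ran from -0.54 to 0.91 with a median of 0.35, and 17 pairs were above 0.5 and 15 below 0. Stab2 and Kdr had the highest r, 0.91, and Stab1, Stab2, Kdr, Oit3 and Fcgr2b had r between 0.61 and 0.84 in all their other pairs. Clec4g was nearest to Fcgr2b and Rspo3 (0.68 each), and Wnt2 to Kdr (0.63). Wnt9b was negative against all 9 others, from -0.54 with Lyve1 to -0.02 with Stab1, but this rested on female SIRT6-tg replicate 2. Without that library Wnt9b was negative against 3 of the 9, with r of -0.465 with Lyve1, -0.315 with Rspo3 and -0.11 with Clec4g, and reached 0.46 with Stab2, 0.40 with Stab1 and 0.39 with Kdr. Over all 45 pairs the median r was then 0.25, with 12 above 0.5 and 12 below 0. Stab1, Stab2, Kdr, Oit3 and Fcgr2b had r from 0.44 to 0.87 among themselves without it, and from 0.54 to 0.88 without the 4 libraries that stood apart. Against the mean of the pan-endothelial list, r was 0.86 for Oit3, 0.81 for Fcgr2b, 0.74 for Stab2, 0.73 for Clec4g, 0.70 for Kdr and 0.60 for Stab1. It was 0.52 for Lyve1, 0.40 for Rspo3, 0.39 for Wnt2 and -0.33 for Wnt9b. Without female SIRT6-tg replicate 2 it was 0.04 for Wnt9b and 0.19 for Wnt2. Against the mean of the macrophage list r was 0.60 for Clec4g, 0.47 for Stab2, 0.39 for Rspo3 and 0.38 for Wnt2. It was 0.37 for Fcgr2b and Oit3, 0.35 for Kdr, 0.19 for Stab1, 0.11 for Lyve1 and 0.03 for Wnt9b. For Rspo3 and Wnt2 it was thus about as high as against the pan-endothelial list over the 28 libraries. This turned on single libraries. Without female WT replicate 1 Wnt2 had 0.60 against the pan-endothelial and 0.31 against the macrophage list. Without female SIRT6-tg replicate 2 the order was reversed, with 0.19 and 0.40, and Clec4g then had 0.63 and 0.66.

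**Figure D5:**
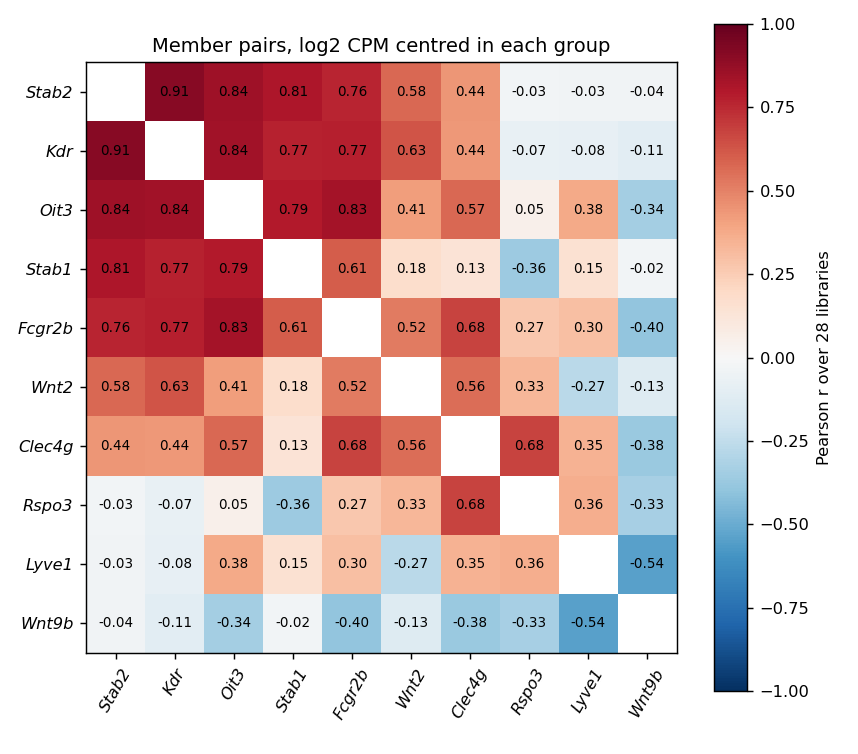
Pearson r between the members over 28 libraries, from log2 CPM centred within each group, with red for positive and blue for negative values. Stab2, Kdr, Oit3, Stab1 and Fcgr2b form a block with r from 0.61 to 0.91, and the row of Wnt9b is negative throughout with female SIRT6-tg replicate 2 included, while without that library 3 of its 9 values are negative.

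The genes most like each member were sought by the same r among 11296 genes that averaged 50 normalized counts or more. Stab1 was most like Flt4 (0.93), the VEGF receptor 3, C1qtnf1 (0.90) and Plxnd1 (0.89). Stab2 was most like Cd300lg (0.92), Dnase1l3 (0.91) and Mrc1 (0.89), the mannose receptor, and Kdr like Dnase1l3 (0.93), Ptprb (0.92) and Bmp2 (0.90). Fcgr2b was nearest to Adgrl4 (0.92), Tfpi (0.90) and Clec14a (0.87), and Oit3 to Eng (0.93), Robo4 (0.92) and Clec14a (0.90). Most of these are genes of endothelial cells. Clec4g was nearest to Fam174b (0.91), Tpbgl (0.90) and Fam167b (0.89), and Lyve1 to Pcdh17 (0.86), Enpp6 (0.74) and Esam (0.73). Among the ligands Wnt2 was nearest to Cyp26b1 (0.83), Col13a1 (0.77) and Kit (0.77). Rspo3 was nearest to Dnajc2 (0.91), Gps2 (0.91) and Tmed3 (0.90), genes that most cell types express. Wnt9b had the weakest neighbours, Nlrc5 (0.68), Cyp1a2 (0.67) and Ly75 (0.66). Without female SIRT6-tg replicate 2 these were 0.49, 0.74 and 0.47. For Lyve1, leaving out all 4 libraries that stood apart gave 0.54 with Pcdh17, 0.13 with Enpp6 and 0.41 with Esam.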

How the data were processed

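RNA was extracted from frozen livers, and the authors sequenced single-end reads of NEBNext Ultra libraries, aligned them to mm10 with STAR 2.5.0a, counted them on Gencode genes with HTSeq, and deposited raw counts per gene. Total counts were 18758863 to 35393069 per library, and a count of 0 allows up to 3 counts, a limit that covers counting error only. The intervals of the log2 fold changes come from the quasi-likelihood fit and also cover the spread between livers. Groups and replicate numbers came from the sample labels, and 0 columns were unmapped. The labels give each library as a sample of its own, and libraries of a group differed by more than the sampling noise (chi-square per gene at least 13.3).

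Symbols, coordinates and exon lengths came from Gencode vM21 on the same build, in which 9 of 10 members have the same versioned identifier. Genes with a mean of at least 0.5 after DESeq2 size factors were tested in 1 fit of 28 libraries with the quasi-likelihood test of edgeR 4.0.16 (TMM, robust) in R 4.3.3, with Benjamini-Hochberg adjustment over 21583 genes. Normalized counts are counts scaled to the mean effective library size, and log2 CPM used a prior count of 2. The fit was also run on counts simulated from its own levels and spreads, without a shift in composition. That run does not bear on the choice of scaling or on single outlying livers. TMM factors were 1.06 to 1.17 in male WT, 0.821 to 0.993 in male SIRT6-tg and 0.906 to 1.06 in female libraries, and mitochondrial genes took 2.86 to 4.84%, 4.49 to 5.79%, 4.23 to 6.32% and 5.55 to 6.58% of the counts in WT males, SIRT6-tg males, WT females and SIRT6-tg females.

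The members and the gene lists were chosen with earlier results of these data known. Named beside the members were up to 4 genes per list with the lowest adjusted p in males, those that passed in females or for the difference between the sexes (at most 4), the 3 genes most like each member, and Sirt6. The hepatocyte list had 10 genes, of which 9 matched a symbol. Alternatives were RLE, upper-quartile, library-size and pan-endothelial scaling, filterByExpr, no filter, DESeq2 1.42.0, each sex alone, the replicate number as a block, and each library left out. Leaving out 4 libraries together, correlations and coefficients of variation without them, and all alternatives for male against female SIRT6-tg livers, were chosen after seeing the data.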

Additional observations from a re-analysis of the deposited data

Results flagged for a closer look

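In 7 of the 40 groups of 7 values (10 members in 4 groups) 1 library lay farther from the rest than Dixon's 95% limit. For independent, normally distributed values chance gives this in about 1 of 20. The 7 came from 4 libraries, and several members varied together across livers, so they are not separate draws. The share over all genes was not counted, and an excess is therefore not shown. Lyve1 had 541 normalized counts in male WT replicate 6 (next 293) and 1021 in female WT replicate 1 (next 262). Clec4g had 2863 in male WT replicate 6 (next 1914) and 3090 in female SIRT6-tg replicate 1 (next 1728). Rspo3 had 440 in male WT replicate 6 (next 272). In female SIRT6-tg replicate 2 Fcgr2b was lowest at 1132 (next 1962) and Wnt9b highest at 63.6 (next 31.0). With these 4 libraries left out, an alternative chosen after seeing the data, the male log2 fold changes of Wnt9b and Lyve1 were -0.97 and -0.57, and the female ones -0.41 and -0.16.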

How the results depend on the processing

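Among the members' single log2 fold changes, 343 values under the alternatives kept direction and side of the threshold, 14 passed where the reported value did not, 1 no longer passed, and 31 changed sign. With 1 library left out, these counts were 1089, 7, 0 and 52. None of the values that changed sign passed, and the cause was not tested.

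In males 1 member was called, and 5 with library size alone, 0 relative to pan-endothelial genes, 2 (Wnt9b and Lyve1) with each sex fitted alone, 2 with the 4 libraries that stood apart left out, and 1 to 2 with 1 library left out (2 without female WT replicate 1). In WT livers 0 members were called between the sexes, and 1 with RLE scaling, library size alone, filterByExpr, the replicate block, DESeq2 and the 4 libraries left out (Wnt9b each time) or relative to pan-endothelial genes (Fcgr2b). With 1 library left out this count ran from 0 to 2. Wnt9b then passed without male WT replicate 6 (0.74), male SIRT6-tg replicate 7 (0.69), female WT replicate 6 (0.79) or female SIRT6-tg replicates 2 (0.68) or 7 (0.70), and Fcgr2b without female SIRT6-tg replicate 2 (-0.32). For the unequal effect in males and females 0 members were called, and 1 (Wnt9b) with library size alone.

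Over all genes 6 were called in females, and 2 with each sex fitted alone, 42 by DESeq2, 10 with the 4 libraries left out, and 3 to 16 with 1 library left out. That count was 16 without female SIRT6-tg replicate 2, 14 without replicate 7, 3 without replicate 3 or 4, and 10 without female WT replicate 1 or 4. For the unequal effect 1089 genes became 1863 with library size alone, 434 relative to pan-endothelial genes and 795 to 1362 with 1 library left out. Between WT sexes 2669 became 4212, 1470 and 2029 to 2979, and between transgenic sexes 4988 became 2981 relative to pan-endothelial genes and 3841 to 5609. In males 4467 became 4294 with library size alone, 3243 relative to pan-endothelial genes and 3578 with males fitted alone. It became 5098 with the 4 libraries left out and 3301 to 4810 with 1 library left out. The share of calls that were higher in males was 46.8%, and 35.7% with RLE, 26.2% with upper-quartile and 4.89% with library-size scaling, and 27.7% with males fitted alone. For the unequal effect it was 23.9%, and 10.8%, 1.40% and 10.4% with upper-quartile, library-size and pan-endothelial scaling. Between WT sexes it was 53.8%, and 86.8% with library size alone, and between transgenic sexes 55.9%, and 39.2% and 39.01% with upper-quartile and library-size scaling.

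Log2 fold changes that changed sign were, in males, Clec4g relative to pan-endothelial genes (0.11), with the block (0.024) and with the 4 libraries left out (0.14), Fcgr2b relative to pan-endothelial genes (0.035), Oit3 with library size alone (-0.083) and Rspo3 with the 4 libraries left out (0.011). Kdr was -0.030 with RLE and with DESeq2, -0.069 with upper-quartile and -0.26 with library-size scaling, -0.072 with males alone and -0.015 with the 4 libraries left out. In females they were Clec4g relative to pan-endothelial genes (-0.0058) and with the 4 left out (-0.083), and Wnt9b with upper-quartile scaling (-0.0036), filterByExpr (-0.0019), the block (-0.083) and the 4 left out (-0.41). For males minus females they were Lyve1 with upper-quartile (-0.032) and library-size scaling (-0.31), the block (-0.11) and the 4 left out (-0.41), Clec4g relative to pan-endothelial genes (0.12), with the block (0.0062) and with the 4 left out (0.22), Kdr relative to pan-endothelial genes (0.018) and Oit3 with library size alone (-0.22). Between WT sexes they were Stab2 relative to pan-endothelial genes (-0.0048), Lyve1 (0.12) and Clec4g (-0.086) with the 4 left out, and Oit3 with library size alone (0.0997).

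Leaving out 1 library at a time turned the sign of 14 values. In males Clec4g ran from -0.083 to 0.15, Kdr from -0.042 to 0.039 and Rspo3 from -0.34 to 0.023. In females Clec4g ran from -0.15 to 0.16, Wnt2 from -0.23 to 0.0077, Wnt9b from -0.33 to 0.11 and Rspo3 from -0.048 to 0.14. For males minus females Lyve1 ran from -0.57 to 0.29, Clec4g from -0.19 to 0.14 and Oit3 from -0.056 to 0.15. Between WT sexes Lyve1 ran from -0.50 to 0.37, Clec4g from -0.060 to 0.23, Oit3 from -0.17 to 0.036 and Wnt2 from -0.0035 to 0.21.

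The labels do not say whether the replicate numbers pair the samples. The authors state that comparisons were between littermates and that genotypes shared cages. Between same-numbered libraries of a sex r ran from -0.594 to 0.503, and a library's own number was its best partner for 1 of 7 in each sex. Such values cannot settle whether libraries were matched by litter or cage. With the number as a block 4021 genes and 1 member were called in males, and the call it changed among the members was Wnt9b between WT sexes (0.68, adjusted p = 0.0274, edgeR). Each sex alone gives no value for comparisons between sexes. Depth limits Wnt9b most, and a count cannot separate cell number from RNA per cell.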

Other observations

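The spread of 4 of the 10 members among livers of 1 group is given here without a test. These 4 do not stand for the rest. Wnt2, for one, had a coefficient of variation of 29.8% in male and 29.5% in female SIRT6-tg livers, and 18.1% and 28.2% in WT livers. For Kdr the coefficient of variation was 8.34% in male WT and 10.5% in male SIRT6-tg livers, against 29.5% in female WT and 24.8% in female SIRT6-tg livers. For Oit3 it was 10.6% and 14.6% in males against 24.8% and 31.4% in females, and for Fcgr2b 12.6% and 7.68% against 17.96% and 22.7%. Without female SIRT6-tg replicate 2 the female SIRT6-tg values were 15.99% for Kdr, 19.2% for Oit3 and 10.03% for Fcgr2b, the last below that of male WT livers. Rspo3 had 33.6% in male WT and 13.9% in female WT livers, and 11.45% in male WT livers without replicate 6, which was at 440 normalized counts. Female WT replicate 6 had the highest value of its group in 7 members and female WT replicate 3 the lowest in 6. Their summed pan-endothelial levels were 10736 and 5920 normalized counts, the highest and the lowest of that group.

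Among hepatocyte genes under Wnt control, Lgr5, a receptor of R-spondins, had a log2 fold change of 0.52 in females (unadjusted p = 0.00202) and of -0.02 in males, and Tbx3 had 0.49 (unadjusted p = 0.0126) and 0.02. Neither passed after adjustment in either sex, and both are named after their values were seen. The female values of the 18 genes of that list ran from -0.28 to 0.52. Of the 18, 3 had an unadjusted p under 0.05 in females, as had 1212 of all 21583 genes. The interaction of genotype and sex passed for 0 of the 18, so a difference between the sexes is not shown.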
